A study of Homo sapiens with 4 samples.

Results

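The well-counted retained-intron transcripts of H1299 cells are described here, as they were counted in cells exposed to mercury chloride and in cells exposed to the solvent. A retained-intron transcript, as the GENCODE annotation uses the term, is an RNA of a gene that keeps bases which the protein-coding transcripts of that gene remove as intron. The members were chosen by 2 measures. The first was the annotation type retained_intron, and the second was the raw count, with a mean of at least 60 counts over the 4 columns of the count table. They numbered 537 transcripts of 451 genes, out of 5040 transcripts of any type with that mean, 9374 retained-intron transcripts with at least 1 count, 28928 retained-intron transcripts listed and 227368 transcripts in the table. The rule did not use the difference between the groups, but it was set with that difference known, so the values below are a description.

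H1299 is a human non-small-cell lung carcinoma line. One group was treated with 5 µM HgCl2 for 48 h and the control group with the solvent, 0.6% EtOH, for the same time, and polyA RNA of both was sequenced. Each group had 2 columns, labelled as replicates. The columns of a group differed by less than counting alone gives: the variance of their difference was 0.506 times the counting variance over the members in the EtOH-treated group and 0.472 times in the HgCl2-treated group. They were therefore averaged and counted as 1 sample per group, so no comparison below has a p-value, and the intervals cover counting error only. Total counts per column were 5051958 and 5053120 for EtOH, and 4722772 and 4720978 for HgCl2. Of the markers used to check the line, VIM had 501 to 628 counts per column and EPCAM was listed at 0 in every column. KRT18 had 18 to 31 counts, and KRT8 had 53 and 58 counts in EtOH against 4 and 4 in HgCl2. The part of these marker differences in the results below was not tested.

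Most introns leave an RNA while it is being transcribed, but a set of introns is removed slowly and keeps the RNA in the nucleus until it is spliced or degraded. Such retention is known for genes of the splicing machinery itself, where it takes part in feedback on the amount of the protein, and for OGT and MAT2A, where splicing of a retained intron follows the product of the enzyme. A retained intron can also mark RNA that was not yet fully processed, or an RNA with its own 3′ end inside an intron, and counts alone do not tell these apart.

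How the counts were made sets what they can show. The counts were given per transcript, and how reads over bases shared by several transcripts were assigned is not given in the sources used here. The median member was 2640 bases long, of which 1004 lay in no other listed transcript and are called its own bases below. The most counted protein-coding transcript of the same gene had a median of 374 such bases, over those with any count. It had 0 counts in all columns for 137 members and at most 3 mean counts in at least 1 group for 254 members, and 27 members had no coding transcript. The own bases of coding transcripts at 0 were not computed, so whether few own bases go with the 0 was not tested. A count of 0 for a coding transcript is not read as absence of its mRNA. The change of a member against its coding transcript was computed for the 256 members whose coding transcript had more than 3 mean counts in both groups, and most of the text uses the 161 members, of 133 genes, whose coding transcript had a mean of at least 60 counts.

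Relative to their coding transcripts the members came in 3 layouts. At least 1 whole intron of the most counted coding transcript was held by 185 members (34.5%), of which 111 held 1 and 74 held 2 or more. A further 234 members (43.6%) held part of an intron only, as when a transcript begins or ends inside one. The remaining 91 with a coding transcript held at most a few bases of its introns in any exon and differed from it in another way. They are called members with no intron base below. The plot of exons shows these layouts for 4 genes.

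**Figure D1:**
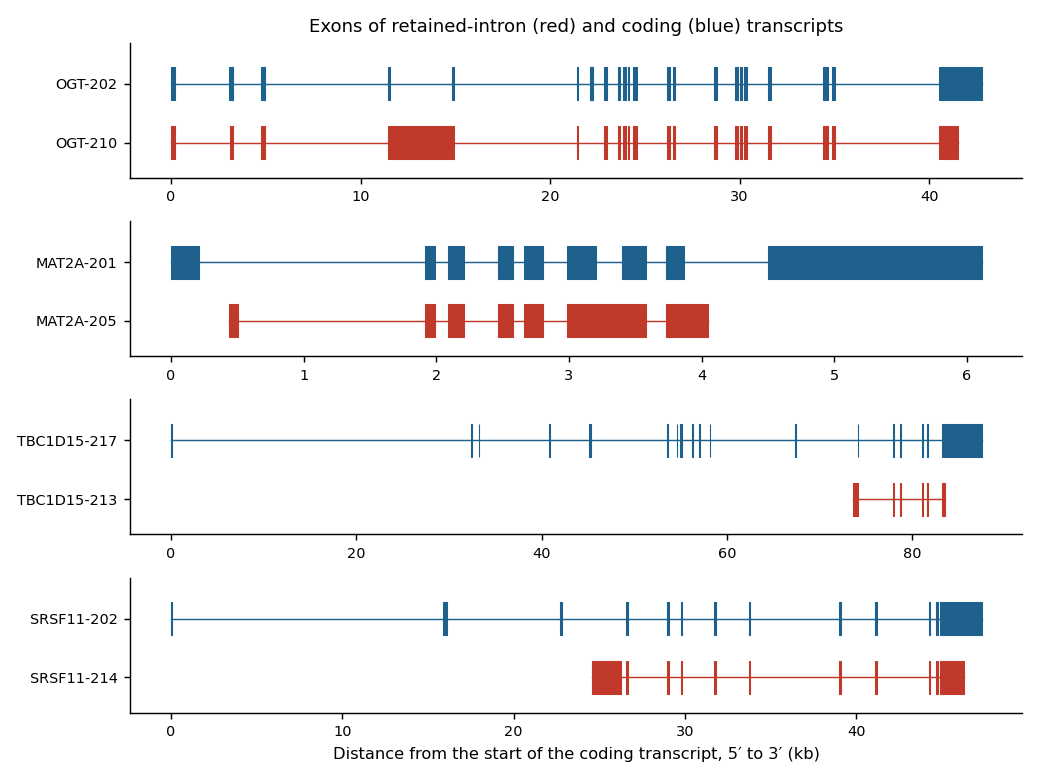
Exons of 4 retained-intron transcripts (red) and of the most counted coding transcript of the same gene (blue), drawn to scale against the distance in kb from the start of the coding transcript, 5′ to 3′; boxes are exons and lines are introns. OGT-210 and MAT2A-205 join 2 coding exons through a whole intron, while TBC1D15-213 and SRSF11-214 start inside an intron. MAT2A-205 also starts inside the first intron and ends inside the last.

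The introns held whole are shown by their splice sites for 4 of the 5 most counted members, for 3 members of genes known for regulated retention, and for 3 members from the ends of the comparison with the coding transcript, 2 high (SLC38A2-212 and NPEPPS-217) and 1 low (PCBP2-209). The sequences are from the GRCh38 genome, on the transcribed strand. Capitals mark the last 3 exon bases and the first 6 intron bases at the 5′ site, and the last 3 intron bases and the first exon base at the 3′ site.
OGT-210 intron 4 of 21, chrX:71544636-71547906, plus strand, 5′ site: gccAAGGTAGGTgtttgatagaacac
OGT-210 intron 4, 3′ site: cttctttcattaacccctcctAAGGcatgt
ARGLU1-204 intron 2 of 3, chr13:106557132-106559431, minus strand, 5′ site: agaGAGGTAACGctcggtcgtttgga
ARGLU1-204 intron 2, 3′ site: atcttaacatatcctccccttTAGGaggaa
DDX17-201 intron 11 of 12, chr22:38488116-38492055, minus strand, 5′ site: ggcTAGGTTTGTatagataggtgtct
DDX17-201 intron 11, 3′ site: actgactcatcattgacgtggAAGAtgtgg
YBX3-208 intron 5 of 9, chr12:10710115-10713210, minus strand, 5′ site: cggAATGTACGTtgtctctgttactt
YBX3-208 intron 5, 3′ site: atctctgtttctttgcttcgcTAGTacgct
YBX3-208 intron 7 of 9, chr12:10702135-10704050, minus strand, 5′ site: ccgTAGGTATGTcgcattttccacta
YBX3-208 intron 7, 3′ site: tattttcttctgtgttccctaCAGCagggg
MAT2A-205 intron 6 of 8, chr2:85542374-85542564, plus strand, 5′ site: cctCAGGTAATGtcattttgttgcat
MAT2A-205 intron 6, 3′ site: gtaacttaaatcctgtaatttCAGGgtgat
CCNL1-204 intron 4 of 10, chr3:157152242-157153035, minus strand, 5′ site: catAAGGTGAGTtgtagagtacagaa
CCNL1-204 intron 4, 3′ site: gagtttttttcccttgtccttCAGAtcatt
TRA2B-208 intron 4 of 8, chr3:185922127-185923795, minus strand, 5′ site: aagGAAGTAAGTaaaagcccgttcct
TRA2B-208 intron 4, 3′ site: taacaatttatttaccttttgAAGGctaaa
SLC38A2-212 intron 14 of 15, chr12:46362382-46362493, minus strand, 5′ site: ttaTTGGTAAGTtttagaaagtatcc
SLC38A2-212 intron 14, 3′ site: agaaacataaatgttgttttaCAGGtgcat
NPEPPS-217 intron 21 of 22, chr17:47619165-47619736, plus strand, 5′ site: ataAAGGTATGTgaaaaactttgagt
NPEPPS-217 intron 21, 3′ site: ctgtttaaaaccattgttttgCAGCtatca
PCBP2-209 intron 5 of 7, chr12:53467844-53468776, plus strand, 5′ site: attGGGGTAATGattaaaaaaaaaaa
PCBP2-209 intron 5, 3′ site: tgcttgctctcttctgtctttTAGCaggtt

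The 317 distinct introns held whole were set beside the 1635 other introns of the same coding transcripts. Their median length was 724 bases against 1309, and 34.7% against 26.6% were shorter than 500 bases. They began with GT and ended with AG in 99.1% of cases, against 98.8%. The letters GTAAG opened 27.8% of them and 32.7% of the other introns, and the looser GTNNG opened 70.0% and 74.5%. Of the 20 bases upstream of the last 4 intron bases, a median of 70% were C or T, against 75%. GC content was close in both, with medians of 38.5% and 39.7%. Held introns were the last intron of the coding transcript in 12.9% of cases against 8.20%, and the first in 5.68% against 9.60%. The held introns were thus shorter and more often last, and they opened with GTAAG or GTNNG less often, with no test made of the differences. Among the 185 members with a whole intron, the log2 ratio of HgCl2 to EtOH followed neither intron GC content (Spearman rho −0.05 across transcripts, which are not independent samples) nor intron length (−0.15) closely.

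As polyA RNA was sequenced, the 3′ ends were searched for the letters AATAAA or ATTAAA, the usual polyadenylation signals, in the last 50 bases of the transcript on its own strand. They were found in 258 of 537 members (48.0%), in 21.6% of all retained-intron transcripts listed and in 303 of 429 coding transcripts of the members (70.6%). Members with the signal had a median log2 ratio of 0.24, with 37 at least 2-fold higher and 11 at least 2-fold lower in HgCl2. The 279 members without it had a median of 0.39, with 62 higher and 14 lower. Over all 537 members, 18.4% were higher and 4.66% lower, and over all 5040 transcripts 6.27% and 8.37%.

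The members as a class were counted more in the HgCl2-treated group. They held 2.03% of all counts in EtOH and 2.80% in HgCl2, and all retained-intron transcripts together held 3.27% and 4.07%. In bulk RNA, more RNA per cell and more cells that hold the RNA cannot be told apart. The log2 ratio of HgCl2 to EtOH, from the group means after adding 0.5 and after subtracting the median over the 2712 transcripts that averaged 200 or more counts, had a median of 0.32 over the members, with quartiles of −0.13 and 0.82 and a range from −2.51 to 3.35. It lay above 0 for 364 members (67.8%), against 49.3% of all 5040 transcripts, whose median was −0.01. At least 2-fold higher were 99 members (18.4%), beside 6.27% of all 5040 transcripts. At least 2-fold lower were 25 members (4.66%), beside 8.37%. At this count minimum a change of at least 2-fold always has a 95% counting interval that leaves out 0, so this held for all 99 and all 25 by construction. In 50 and 8 of them the whole interval lay past 2-fold. The minimum is on the mean of both groups, so a member can pass it through its higher group alone. With at least 30 counts required in every column, 516 members remained, of which 83 were higher and 20 lower. The share of all transcripts under that requirement was not computed.

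The share of calls depends on the scale. Scaled by median-ratio size factors, as the deposited FPKM values are, every log2 ratio moves up by about 0.39, so a value less than that far below 0 here lies above 0 on that scale. Of the calls among members, 79.8% were on the higher side with the scale used here, 95.9% with median-ratio factors and 90.3% with total counts. All transcripts move with it: the median over all 5040 becomes 0.37 with median-ratio factors, and 15.4% of them are then at least 2-fold higher and 3.91% lower. Each of these scales moves every log2 ratio by the same amount, so the gap between the members' median and that of all transcripts is fixed by construction. The medians were 0.32 against −0.01, 0.71 against 0.37 and 0.48 against 0.15. The difference between a member and its coding transcript does not depend on the scale.

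The count sets how far a ratio can be trusted. Among the 230 members with a mean of 60 to 100 counts, 48 were higher and 19 lower, but so were 13.2% and 17.6% of all 1140 transcripts in that range. Among the 167 members from 100 to 200 counts, 33 were higher and 4 lower, beside 9.43% and 10.5% of all 1188 transcripts there. From 200 to 500 counts, 86 of 104 members lay above 0, with a median of 0.42, and 16 were higher and 2 lower, beside 3.32% and 5.32% of all 1204 transcripts there. Of the 36 members with 500 or more counts, 25 lay above 0, with a median of 0.23, and 2 were higher and none lower, beside 0.862% and 2.12% of all 1508. The ranges are those of the mean over both groups. In every range the members' median lay above that of all transcripts in the range, while the extreme ratios came from the lowest counts. At the count minimum, the 3 members just inside, SEM1-209, ZNF84-211 and U2SURP-201, had means of 60 to 60.5 counts and log2 ratios of 1.32, −1.07 and −0.42. The 3 transcripts just outside, ZNF75A-207, WRN-202 and GTF2H2-210, had means of 59.5 to 59.75 and log2 ratios of 1.13, 1.28 and 0.14.

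**Figure D2:**
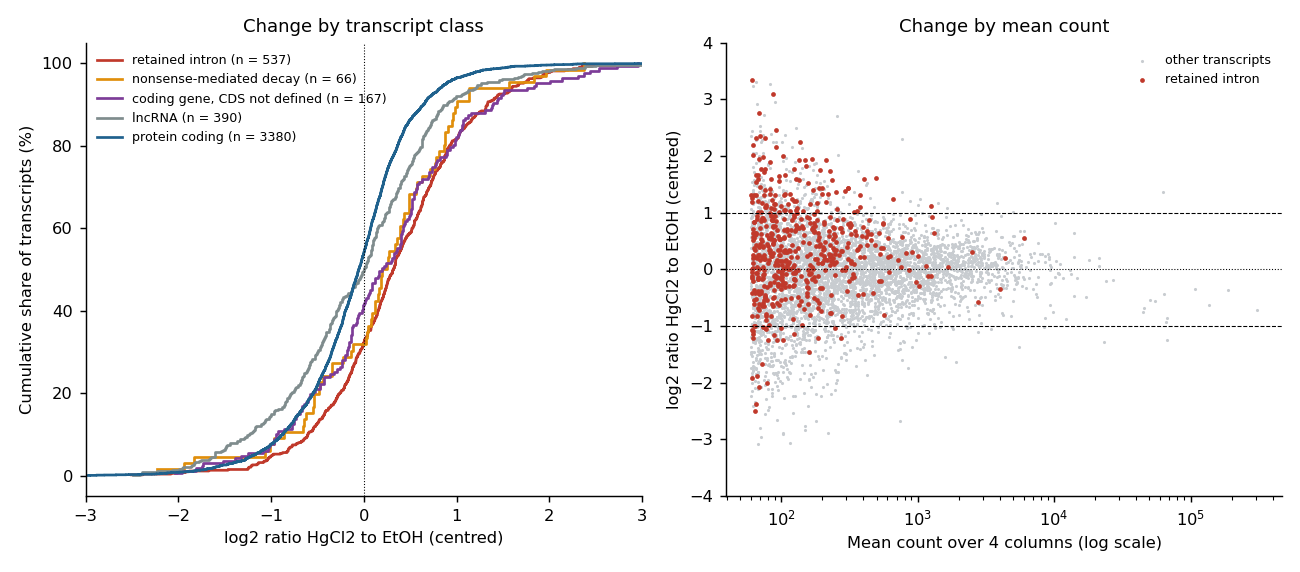
Left, the cumulative share of transcripts (%) against the log2 ratio of HgCl2 to EtOH, for 5 annotation classes with a mean of at least 60 counts; right, the log2 ratio against the mean count on a log axis for members (red) and other transcripts (grey), with dashed lines at 2-fold. The retained-intron curve lies to the right of the coding curve over most of its length, and the spread narrows as counts increase.

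Other transcript classes of the annotation were set beside the members. Protein-coding transcripts, 3380 in number, had a median log2 ratio of −0.05, with 120 (3.55%) higher and 257 (7.60%) lower. Transcripts of coding genes with no defined coding sequence, 167 in number, had a median of 0.19, with 30 (18.0%) higher and 13 (7.78%) lower, a share of higher calls close to that of the members. The 66 transcripts typed as targets of nonsense-mediated decay, the pathway that removes RNAs with an early stop codon, had a median of 0.22, with 7 higher and 5 lower. For lncRNA, 390 in number, the median was 0.00, and for 313 processed pseudogenes it was −0.12. The second most counted coding transcripts of a gene, 106 in number, had a median of 0.11, with 15 (14.2%) higher and 9 (8.49%) lower. The members thus shared their direction with the other non-coding products of coding genes and, on this ratio, with second coding transcripts.

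Against the coding transcript of the same gene, which removes a change of the whole gene, the members still lay on the higher side. Over 256 members the median difference of the log2 ratios was 0.52, with 78 (30.5%) at least 2-fold above and 20 (7.81%) at least 2-fold below. Of all 504 transcripts that could be compared in this way, members included, 22.8% were above and 8.73% below. With a coding transcript of at least 60 counts, the median over 161 members was 0.37. Of these, 104 lay above 0, and 34 (21.1%) were at least 2-fold above and 9 (5.59%) below, beside 16.5% and 7.69% of all 364 transcripts compared. The counting interval of the difference lay above 0 in 70 of the 161, below 0 in 23 and held 0 in 68. The corresponding medians were 0.45 for 16 decay targets, 0.30 for 67 transcripts with no defined coding sequence and 0.08 for 106 second coding transcripts of a gene. Of the 67 with no defined coding sequence, 12 (17.9%) were at least 2-fold above and 3 (4.48%) below, shares near those of the members. Of the 16 decay targets, 2 were above and none below. Among the 106 second coding transcripts, 10 were above and 15 below, so that the excess above was not seen for a second coding product. Across the 161 pairs the change of a member and that of its coding transcript were weakly related (Pearson 0.18, Spearman 0.19, across transcripts that share libraries).

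**Figure D3:**
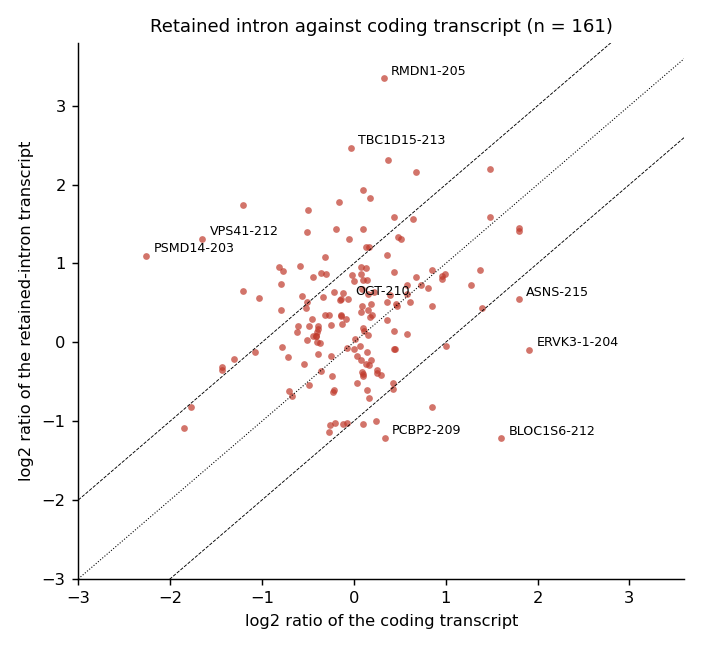
The centred log2 ratio of HgCl2 to EtOH of each member against that of the most counted coding transcript of its gene, for 161 members whose coding transcript had at least 60 counts; the dotted line marks equal change and the dashed lines a 2-fold difference. More members lie above the upper dashed line (34) than below the lower one (9).

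OGT-210 was the most counted member. OGT encodes O-GlcNAc transferase, the enzyme that attaches N-acetylglucosamine to nuclear and cytoplasmic proteins. The transcript spans chrX:71533104-71574655 on the plus strand and holds intron 4 of 21, 3271 bases long. It had 4804 and 4762 counts in EtOH and 7409 and 7265 in HgCl2, and the columns of the groups did not overlap. Its log2 ratio was 0.55 (0.50 to 0.60). The coding transcript had 2349 and 2405 counts in EtOH and 2375 and 2373 in HgCl2. The 2 transcripts thus differed in their change by 0.62 on the log2 scale (0.52 to 0.72). The share of OGT-210 in their joint counts was 67.2% and 66.4% in EtOH and 75.7% and 75.4% in HgCl2.

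Of the next 4 by count, the 3 described here changed in both directions. ARGLU1-204, of a splicing regulator, holds intron 2 of 3 and had 3963 and 3991 counts in EtOH and 4798 and 4819 in HgCl2, a log2 ratio of 0.21 (0.15 to 0.27). Its coding transcript had 97 and 96 counts against 74 and 70, and the difference was 0.69 (0.24 to 1.17). DDX17-201, of an RNA helicase that takes part in splicing, holds intron 11 of 12 and had 3276 and 3220 counts in EtOH against 2286 and 2299 in HgCl2, a log2 ratio of −0.57 (−0.65 to −0.49). YBX3-208, of a cold-shock domain protein that binds RNA, holds introns 5 and 7 and had 2144 and 2189 against 2814 and 2822 counts, 0.31 (0.23 to 0.40). The coding transcripts of DDX17 and YBX3 were listed at 0 in every column, so no comparison with them was made.

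A list of genes known for regulated retention held 25 members in 16 genes. It had a median log2 ratio of 0.73, against 0.32 for all members. Of its members 19 lay above 0, 10 were at least 2-fold higher, beside 18.4% of all members and 6.27% of all transcripts, and none was at least 2-fold lower. Of the 10, CCNL1 and TAF1D gave 3 each. Against the coding transcript, 7 of the 8 that could be compared at 60 counts lay above 0, with a median of 0.66, and none reached 2-fold.

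CCNL1 encodes cyclin L1, which binds kinases that act on transcription and splicing. CCNL1-204, with intron 4 of 10, had 242 and 234 counts in EtOH and 776 and 740 in HgCl2, a log2 ratio of 1.60 (1.39 to 1.82). Its other members, CCNL1-210 and CCNL1-213, had log2 ratios of 1.19 and 1.16. The coding transcript of CCNL1 had 4 and 7 counts in EtOH and 0 and 1 in HgCl2, too few for a comparison. SRSF11-214, of a splicing factor with an arginine- and serine-rich domain, starts inside an intron and had 785 and 761 counts in EtOH and 1794 and 1706 in HgCl2. Its log2 ratio was 1.11 (0.99 to 1.24), and against its coding transcript, with means of 690 and 927 counts, it lay 0.75 higher (0.56 to 0.94). The share of SRSF11-214 in the pair was 54.1% and 51.6% in EtOH and 65.8% and 65.0% in HgCl2.

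TRA2A and TRA2B encode activators of exon inclusion, and their transcripts moved unequally. TRA2A-209 had 163 and 154 counts in EtOH and 349 and 350 in HgCl2, a log2 ratio of 1.07. TRA2B-208, which holds intron 4 of 8, had 60 and 61 counts against 127 and 150, and TRA2B-214 had 288 and 315 against 566 and 588, with log2 ratios of 1.12 and 0.87. TRA2B-213 had 152 and 158 against 165 and 177, a log2 ratio of 0.08 whose interval held 0. The coding transcript of TRA2B went from a mean of 38.5 to 10.5 counts.

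MAT2A encodes the enzyme that makes S-adenosylmethionine, the methyl donor of the cell. MAT2A-205, with intron 6 of 8 and its 191 bases, had 322 and 326 counts in EtOH and 516 and 498 in HgCl2, a log2 ratio of 0.58 (0.38 to 0.79). MAT2A-205 also starts inside the first intron of the coding transcript and ends inside its last intron. Which of these parts its counts came from was not tested, nor whether any is the intron known for regulated retention. The coding transcript had 7598 and 7659 counts against 6333 and 6295, and the difference was 0.92 (0.71 to 1.13). MAT2A-205 held 4.07% and 4.08% of the pair in EtOH and 7.53% and 7.33% in HgCl2, so most MAT2A counts stayed on the coding transcript.

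In CLK1, the kinase of SR proteins, CLK1-210 had 49 and 49 counts against 112 and 130, a log2 ratio of 1.23, and CLK1-207 had 82 and 89 against 105 and 95, with 0.16. Its coding transcript went from a mean of 6.5 to 74 counts, a log2 ratio of 3.35 that was higher than that of both, while its count stayed below theirs. The 3 members of TAF1D, TAF1D-212, TAF1D-213 and TAF1D-215, had log2 ratios of 1.13, 1.90 and 1.36. They share bases with snoRNA genes such as SNORA32 and SNORD5, and whether their counts come from those was not tested. DDX5, the paralogue of DDX17, had DDX5-230 at 0.95 and DDX5-215 at −0.22, the latter turning to 0.16 with median-ratio factors. Neither has a base of its own, and both share bases with MIR5047 and MIR3064. The members of SRSF10, SRSF3 and SRSF4 had log2 ratios of −0.01, −0.07 and −0.59, and SRSF7-211 had 0.66. SRSF9 was split between SRSF9-202 at 0.73 and SRSF9-204 at −0.48. The plot of counts by transcript shows the columns of each group lying close together, with TAF1D-213, at 26 and 41 counts in EtOH, the widest apart.

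**Figure D4:**
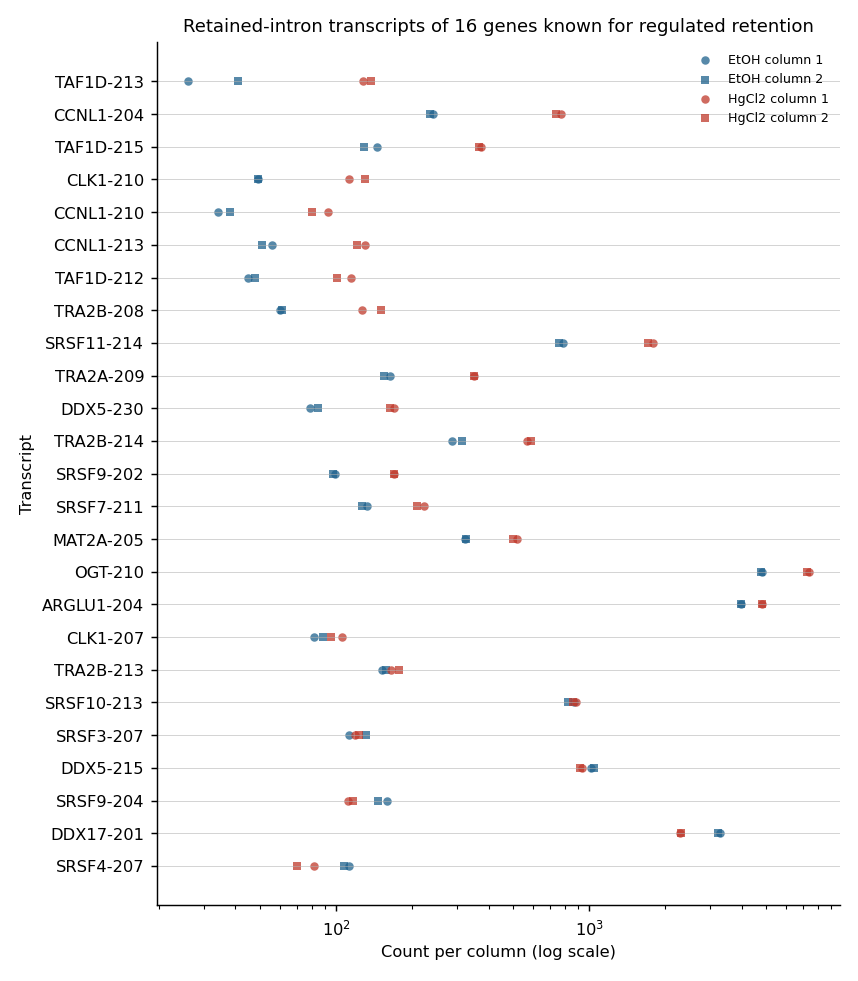
Counts per column (log axis) of the 25 members in 16 genes known for regulated retention, ordered by their change; circles and squares are the 2 columns of each group, EtOH in blue and HgCl2 in red. The red points lie to the right for most of the upper rows, while DDX17-201, SRSF9-204 and SRSF4-207 lie to the left.

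The wider list of splicing factors held 57 members in 34 genes and stood closer to the members as a whole, with a median log2 ratio of 0.21, 36 above 0, 11 at least 2-fold higher and 1 lower, beside 18.4% and 4.66% of all members. It includes every gene of the retention list except OGT, MAT2A and TAF1D, so the 2 lists are not separate. The higher members of CCNL1, SRSF11, TRA2A, TRA2B and CLK1 are counted in both. LUC7L2-205, of a U1 snRNP-associated protein, had 45 and 45 counts in EtOH and 126 and 113 in HgCl2, a log2 ratio of 1.33. The 1 lower member was LUC7L-217, of its paralogue, with 110 and 110 against 46 and 51 counts and a log2 ratio of −1.24 (−1.77 to −0.75). LUC7L2-205 shares bases with the gene FMC1-LUC7L2. RBM25-212, of a splicing regulator, holds 2 introns and had 1019 and 991 counts in EtOH and 1649 and 1621 in HgCl2, a log2 ratio of 0.64 (0.52 to 0.75), which was 0.42 (0.09 to 0.76) above its coding transcript. HNRNPD-210 holds 4 introns of the gene of an RNA-binding protein that acts on mRNA decay. It had 362 and 369 counts against 568 and 527, and lay 1.03 (0.74 to 1.32) above its coding transcript. SON-217, of a nuclear speckle protein, had 83 and 78 counts against 187 and 172, and lay 1.40 (0.98 to 1.84) above its coding transcript. On the other side, RSRC2-211 and RSRC2-214 lay 1.02 and 0.95 below the RSRC2 coding transcript. PNISR had 4 members with log2 ratios from −0.01 to 0.64, the best counted of which, PNISR-203, had 1117 and 1086 counts in EtOH and 1200 and 1191 in HgCl2.

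Other gene groups were described by the same counts, each to be set beside the 18.4% of all members that were at least 2-fold higher and the 4.66% that were lower. Most of these groups are small, and none is called different from the members as a whole. Of 35 members in 30 translation genes, 28 lay above 0, with a median of 0.41, 6 higher and 2 lower. RPL5-203 and RPL5-205, of a large ribosomal subunit protein, were among the higher ones, with 39 and 39 counts against 168 and 163, and 44 and 45 against 154 and 140, and log2 ratios of 2.01 and 1.65. RPS24-217, of the small subunit, was lower, with 135 and 123 counts against 54 and 59. Of 16 members in protein folding and turnover genes, 12 lay above 0, with a median of 0.55, 4 higher and none lower. HSPA9-211, of the mitochondrial chaperone mortalin, had 117 and 125 counts in EtOH and 320 and 322 in HgCl2, a log2 ratio of 1.34. It holds 5 introns and shares bases with SNORD63.

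Mitochondrial genes had 9 members, with a median of −0.02, 1 higher and none lower. Chromatin and transcription genes had 10, with a median of −0.17, 3 higher and none lower, the 3 being those of TAF1D. The 11 members of cell cycle genes had a median of 0.18, 4 higher and 1 lower, and 3 of the 4 were those of CCNL1. Both CDK1 members, of the kinase that drives entry into mitosis, were counted less in HgCl2. CDK1-205 had 346 and 349 against 210 and 203 and CDK1-206 had 201 and 200 against 156 and 138, with log2 ratios of −0.81 and −0.51. The 5 members of DNA replication and repair genes included PARP6-217, with 27 and 20 counts against 98 and 105. Of 7 members in membrane traffic genes, 3 were higher and 1 lower.

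All 3 members of the stress response list came from ASNS, asparagine synthetase, whose gene is a target of the amino acid response. ASNS-215 had 64 and 64 counts against 94 and 102, ASNS-216 had 43 and 44 against 132 and 112, and ASNS-217 had 102 and 94 against 272 and 288. Their log2 ratios were 0.55, 1.41 and 1.44. The coding transcript rose more, from a mean of 61 to 223 counts, so against it the 3 lay 1.25, 0.38 and 0.35 lower, and only for ASNS-215 did the interval leave out 0 (−1.90 to −0.61). These transcripts have the layout called no intron base, and they share bases with a second gene, ENSG00000284707.

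Among members whose coding transcript had at least 60 counts, those farthest above it were of 2 kinds. In PSMD14 and VPS41, among others, the coding transcript was counted less in HgCl2 while the member was counted more. PSMD14 encodes the deubiquitinase of the proteasome lid. PSMD14-203 had 50 and 45 counts in EtOH and 101 and 113 in HgCl2, and its coding transcript had 176 and 171 against 37 and 38, so the difference was 3.36 (2.61 to 4.10). PSMD14-203 held 22.1% and 20.8% of the pair in EtOH and 73.2% and 74.8% in HgCl2. VPS41 encodes a subunit of the complex that tethers vesicles to lysosomes. VPS41-212 had 45 and 38 counts against 110 and 107, and its coding transcript 183 and 170 against 56 and 61, a difference of 2.96 (2.26 to 3.67). Both PSMD14-203 and VPS41-212 had EtOH counts under 60, so they passed the count minimum through HgCl2 alone.

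In the second kind the coding transcript stayed within 2-fold and the member was far higher in HgCl2. RMDN1-205, of a microtubule-associated protein, had 10 and 10 counts in EtOH and 107 and 116 in HgCl2, while its coding transcript had 982 and 972 against 1298 and 1261. The difference was 3.03 (2.15 to 4.20), and RMDN1-205 still held no more than 8.42% of the pair. TBC1D15-213, of a GTPase-activating protein for Rab proteins, had 26 and 27 counts against 152 and 159, with a coding transcript of 281 and 266 against 280 and 279, a difference with an interval of 1.84 to 3.19. SLC38A2 encodes a transporter of neutral amino acids. SLC38A2-212, with intron 14 of 15 and its 112 bases, had 51 and 56 counts against 219 and 210, and lay 1.83 (1.38 to 2.29) above a coding transcript of 3275 and 3259 against 3658 and 3682. SLC38A2-202 had 163 and 161 against 455 and 463 and lay 1.33 above it. NPEPPS-217, of a cytosolic aminopeptidase, holds intron 21 of 22 and had 38 and 42 counts against 124 and 99. It lay 1.91 (1.39 to 2.49) above its coding transcript. PDCD2-210, SLTM-223, FAM3C-204 and ACP6-208 lay 2.17, 1.95, 1.94 and 1.77 above theirs.

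Among the same 161 members, those farthest below were fewer and nearer to 0. Over the 256 members compared with a coding transcript of more than 3 counts, the lowest difference was −3.19 and the highest 3.68. BLOC1S6-212, of a subunit of a complex that forms lysosome-related organelles, had 86 and 84 counts in EtOH and 37 and 39 in HgCl2, while its coding transcript had 49 and 42 against 157 and 135. The difference was −2.82 (−3.60 to −2.06), and the share of BLOC1S6-212 went from 63.7% and 66.7% to 19.1% and 22.4%. PCBP2 encodes a poly(C)-binding protein that acts on mRNA stability and translation. PCBP2-209, with intron 5 of 7, had 256 and 253 counts against 115 and 114 and lay 1.55 lower than its coding transcript (−2.20 to −0.93). DCAF8-214, of a receptor of a ubiquitin ligase, had 96 and 98 against 60 and 54 and lay at −1.68. The HgCl2 means of BLOC1S6-212 and DCAF8-214 were under 60, so both passed the count minimum through EtOH alone. ERVK3-1-204 had 254 and 246 counts against 250 and 240, so its difference, with an interval of −2.71 to −1.33, came from a coding transcript whose mean went from 27.5 to 109.5 counts. DNAJB14-207, RNPS1-221, NFIA-215, RPL36A-204 and SPTBN1-204 had differences from −1.24 to −0.95. Of the 12 lowest, 6 hold part of an intron, 2 a whole intron and 4 no intron base of the coding transcript.

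**Figure D5:**
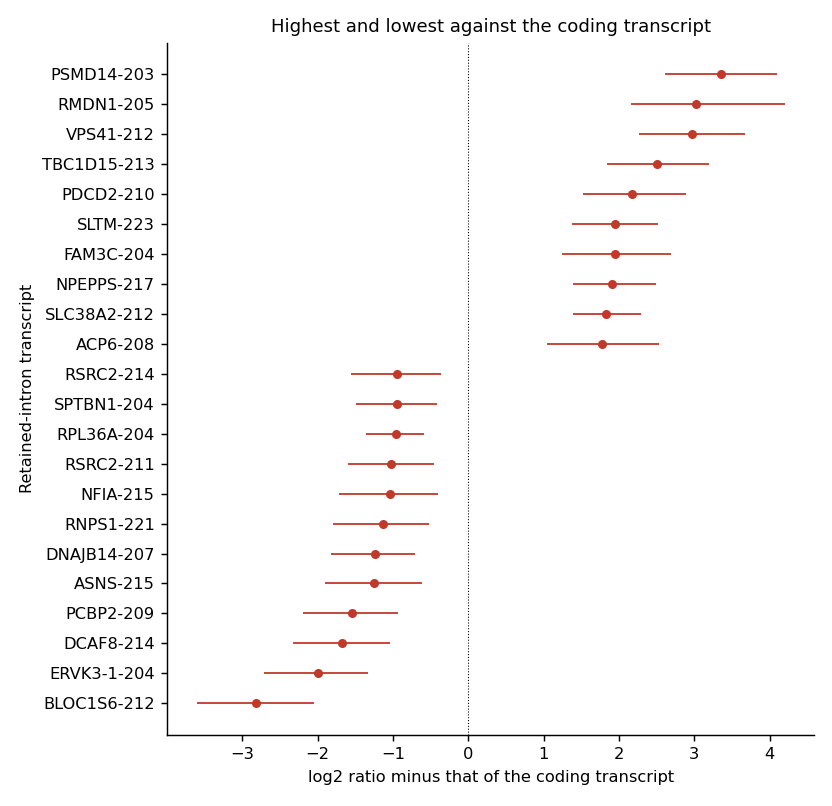
The log2 ratio of HgCl2 to EtOH minus that of the coding transcript, for 10 of the 12 highest and for the 12 lowest members whose coding transcript had at least 60 counts; points are the differences and bars their exact 95% counting intervals. The highest reach 3.36 (PSMD14-203) and the lowest −2.82 (BLOC1S6-212).

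Where the coding transcript itself changed 2-fold, most of the members changed less. Of the 10 members whose coding transcript was at least 2-fold higher in HgCl2, 4 were at least 2-fold higher too and 1 was lower. HMGA2-211 had 852 and 854 counts against 1691 and 1691, a log2 ratio of 0.92 (0.80 to 1.04), while the coding transcript of HMGA2, an architectural chromatin protein, had 1.37. Of the 11 members whose coding transcript was at least 2-fold lower, 1 was at least 2-fold lower, IK-209, and 3 were higher. PPIA-209, of cyclophilin A, had 548 and 537 counts against 490 and 493, a log2 ratio of −0.21, while its coding transcript went from a mean of 1044 to 443. These members were picked by the change of the coding transcript, so their difference from it follows in part from that choice.

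By the log2 ratio alone, the ends were held by members near the count minimum. All members named in this paragraph had means between 60 and 100 counts and passed the minimum through 1 group alone. The high ones passed it through HgCl2 and the low ones through EtOH. The highest, after RMDN1-205, was LVRN-205, of an aminopeptidase, with 14 and 20 counts in EtOH and 160 and 152 in HgCl2, a log2 ratio of 3.10 (2.41 to 3.95). RBM39-245 followed, with 18 and 15 counts against 121 and 120 and a log2 ratio of 2.77. PPHLN1-214 and ENST00000413875, a transcript with no gene name in the annotation that shares bases with SEPTIN7P2, had 2.35 and 2.33. The lowest was NHLRC3-205, with 107 and 109 counts in EtOH and 18 and 21 in HgCl2, a log2 ratio of −2.51 (−3.31 to −1.83). LRRFIP2-219, TRAPPC13-211, LAMB2-217, MACROH2A1-216 and MITD1-206 lay between −2.38 and −1.88. The coding transcripts of these low members had at most 4 mean counts in either group, so the change could not be set against them.

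Among the 140 members with a mean of at least 200 counts, 18 were at least 2-fold higher (12.9%) and 2 at least 2-fold lower (1.43%), beside 1.95% and 3.54% of all 2712 transcripts with that mean. Those outside the rule for named transcripts were picked here after their values were seen. GABBR1-206, of a subunit of the GABA-B receptor, had 85 and 86 counts in EtOH and 352 and 329 in HgCl2, the highest log2 ratio of the 18, 1.92 (1.58 to 2.29). SLC25A3-204, of the mitochondrial phosphate carrier, holds a whole intron and had 189 and 198 against 596 and 624, a log2 ratio of 1.59, which was 1.15 above its coding transcript. XPOT-206, of the exporter of tRNA, had 112 and 115 against 351 and 356 counts, and DHX15-202, of a helicase that takes spliceosomes apart, had 213 and 206 against 532 and 558. SAT1 encodes the enzyme that acetylates spermidine and spermine. SAT1-206 had 380 and 376 counts against 926 and 955, a log2 ratio of 1.25 (1.08 to 1.43), and SAT1-202 had 46 and 45 against 228 and 230, with 2.25. The 2 lower members were IMP4-208, of a protein of ribosomal RNA processing, with 393 and 356 against 170 and 170 counts, and DYNC1LI2-211, of a dynein subunit, with 322 and 339 against 173 and 164. With median-ratio factors IMP4-208 and DYNC1LI2-211 are less than 2-fold lower.

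A gene's members did not always move together. Of the 74 genes with 2 or more members, which held 160 members, all members lay on the same side of 0 in 51, and the log2 ratios of a gene spanned at least 1 in 26. RBM39, a splicing factor, had the widest span, but this rests on RBM39-245, which passed the count minimum through HgCl2 alone. Without it the RBM39 values ran from −0.41 to 1.38, a narrower span than that of MAGI2-AS3. RBM39-223 had 533 and 516 counts against 415 and 410, a log2 ratio of −0.41, RBM39-233 had 222 and 210 against 230 and 248, with 0.08, RBM39-228 had 164 and 152 against 418 and 445, with 1.38, and RBM39-245 had 2.77. The transcripts that hold a whole intron of RBM39, RBM39-223 and RBM39-233, had the lower 2 ratios. Wide spans with opposite signs were also seen in AFDN, from −1.01 to 0.71, and in RBMS1, from −0.64 to 1.20. The RNA of MAGI2-AS3, a long non-coding gene, ranged from −0.15 to 1.98. Both members of CHASERR, the lncRNA next to CHD2, lay above 0, at 1.02 and 1.95.

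The layout of a member was only loosely tied to its change. The median log2 ratio was 0.26 for members with a whole intron, 0.38 for those with part of an intron and 0.34 for those with no intron base, and 29 (15.7%), 53 (22.6%) and 12 (13.2%) of them were at least 2-fold higher, beside 18.4% of all members, against 8, 9 and 7 lower. Against the coding transcript the 3 medians were 0.37, 0.46 and 0.11. The 135 shortest members had a median of 0.45, with 35 higher and 4 lower, and the 135 longest 0.22, with 17 higher and 2 lower. Sharing bases with another gene made little difference to the log2 ratio: the 158 members that share bases had a median of 0.31 and the 379 others 0.33, of which 65 were higher and 17 lower. Against the coding transcript, the 40 that share bases had a median of 0.10 and the 121 others 0.45. The 15 members with no base of their own had a median of −0.32 and none was higher. Members lay on 23 chromosomes, with 64 on chromosome 2, and 266 of them on the plus strand.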

How the data were processed

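H1299 cells treated with 5 µM HgCl2 or with 0.6% EtOH for 48 h were compared, with 2 columns per group. Raw counts per transcript and FPKM values were deposited by the authors. According to the study's methods and the submitters' processing notes, polyA RNA libraries were made with a TruSeq RNA kit, reads were trimmed with Trim Galore, aligned with STAR 2.5.4b to GRCh38 with an Ensembl annotation and counted with Rsubread, and FPKM was computed by DESeq2 1.26.0. The deposited count columns are the main data here, and the deposited FPKM columns served as an alternative scale. Whether strand was used in counting is not given in the sources used here, so transcripts that overlap another gene are uncertain.

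The table's Ensembl transcript identifiers were matched to GENCODE 44, which holds 223558 of the 227368. Transcript types, exons and gene names come from it, and sequences from GRCh38. Log2 ratios were computed from group means with a pseudocount of 0.5 and centred over transcripts that averaged 200 or more counts. The columns of a group were compared with counting noise and averaged. Intervals are exact 95% Clopper-Pearson intervals of 2 counts, or exact conditional intervals of the odds ratio of 4 counts, and they cover counting error only, since reads were not tagged by molecule. No test was made and no p-value is given. A transcript at least 2-fold changed is counted as called. A coding transcript needs more than 3 counts in both groups to be compared.

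Named transcripts are the 5 with the most counts, the 12 highest and 12 lowest against a coding transcript of at least 60 counts with the shares of both groups apart, the 6 highest and lowest log2 ratios, members of the splicing and retention lists, genes with 2 or more members, those nearest the count minimum, those whose coding transcript moved 2-fold, and examples of each gene list. The members and lists were chosen with earlier results of these data known. Computation used Python 3.11.15, pandas 2.3.3 and scipy 1.17.1, with scaling factors from edgeR 4.0.16 and DESeq2 1.42.0 in R 4.3.3. The ratio and interval code was tested on simulated data. Alternatives were other scales, pseudocounts, count minimums, comparators and subsets of members, and each column left out in turn. Some genes, with the values that need them, are not reported here.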

Additional observations from a re-analysis of the deposited data

How the results depend on the processing

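The median difference of 0.52 from the coding transcript stayed between 0.37 and 0.61 under every alternative run. A change of scaling factor alone cannot move this difference. With median-ratio factors 189 members were at least 2-fold higher and 8 lower, with a median of 0.71, and with the deposited FPKM values (log2 of FPKM + 0.1) 186 and 8, with a median of 0.70. With total counts 14 were lower and the median was 0.48. With a mean of at least 30 counts, 273 of 1061 members were higher and 97 lower, and 181 were 2-fold above and 56 below their coding transcript. With at least 100 counts, of 307 members 51 were higher and 6 lower, and 46 were above and 9 below. With at least 200 counts, an alternative chosen after seeing the data, of 140 members 18 were higher and 2 lower, and 21 were above and 2 below. These minimums change the number of members. The shares of all transcripts at the minimums of 30 and 100 counts were not computed, so the counts there are not set beside a background. Without members that share bases with another gene, 65 of 379 were higher and 11 were below their coding transcript. Of the 185 members with a whole intron, 29 were higher and 8 lower, and 26 were above and 4 below. With a coding transcript of at least 60 counts, 34 were above and 9 below. Leaving out a column gave 96 to 103 higher, 21 to 26 lower, 74 to 78 above, 19 to 24 below and medians of 0.29 to 0.33 and 0.48 to 0.52. The columns are near copies within a group, so this says little of stability. Pairing the columns by replicate number (a replicate block) gave 99 higher, 24 lower and a median of 0.32. Same-numbered columns share only a number. For 61 named members 677 of 732 values stayed within the counting interval and none of those called changed sign, while 55 moved past it, all under another scale. Depth limits the members near 60 counts, where intervals span over 1 log2 unit.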
